A study of Mus musculus with 19 samples.

Results

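Gastrocnemius muscle of tumour-bearing mice given rolipram was compared with gastrocnemius muscle of healthy mice, to find which genes stayed away from the healthy level under the drug and which reached it. The comparison took 12 of the 19 libraries of the series by their labels: 5 labelled C26 rolipram and 7 labelled healthy control. C26 cells come from a murine colon cancer, and mice that carry them lose muscle and fat, a state called cachexia. Rolipram blocks phosphodiesterase 4 (PDE4), an enzyme that breaks down cyclic AMP. Per the labels, the C26 mice were male Balb/c mice that received the cells under the skin of the right flank at 2 months of age. From day 4 they received intraperitoneal rolipram at 3 mg/kg, or a vehicle of ethanol in saline in the 7 C26 vehicle libraries used here for reference. The controls carried no tumour, and the labels give no injection, age, sex or strain for them, so the tumour, the injections and any such difference cannot be told apart. There was no healthy group given rolipram. The labels do not say that each library came from a separate mouse, so p-values measure the spread between libraries, which may in part be technical.

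In cachexia, muscle fibres shrink as contractile proteins are tagged with ubiquitin and degraded by the proteasome, while autophagy removes organelles and mitochondrial genes fall. The FOXO transcription factors, glucocorticoids from the adrenal gland and the inflammatory IL-6 to STAT3 pathway are the best known drivers of this programme. Cyclic AMP acts through protein kinase A and the factor CREB, which binds the cyclic AMP response element and induces genes of metabolism and of its own feedback. PDE4 is a major cyclic AMP-degrading enzyme of skeletal muscle.

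Messenger RNA was measured by polyA-selected RNA sequencing with a stranded kit, and expression is given as RPKM, the reads per kilobase of gene and per M (mega) reads. Library sizes estimated from the spacing of low values were 16.48 to 38.34 M reads in C26 rolipram and 18.01 to 22.39 M in control. Genes of muscle fibres marked every one of the 19 libraries as skeletal muscle, with Acta1 at 11783 RPKM or more and Ckm at 4795 or more. Of the 13067 genes listed, 11141 had at least 1 RPKM in at least 5 libraries and were tested. The 20 most abundant genes held 32.0% ± 3.47 of all RPKM in C26 rolipram (SD, n = 5) and 45.0% ± 0.943 in control (n = 7), with no overlap (exact permutation test, two-sided, p = 0.00126, the smallest that 792 assignments allow). RPKM are relative to the whole library, and all genes together had a median difference of 0.15 in log2 units, a shift that median-of-ratios scaling took to 0.0; the part of the 20 genes in this shift was not tested. Medians of gene lists are therefore given minus this 0.15, and single genes as deposited. The strand setting of the counting was not given in the sources used here. An annotated gene on the opposite strand covers more than 20% of the exons of Mt2, Nmrk2, Depp1, Ostn, Actc1, Mybph, Pstk, Htra1, Endog, Mrpl12, Mcrip2, Klhdc3, Jph1, Ndufs1, Mpc1, Phb2, Gnas, Scx, Mrps34, Mrpl19, Cp, Nfkb2, Pde9a, Lox and Alas2, whose values may hold reads of that partner.

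**Figure D1:**
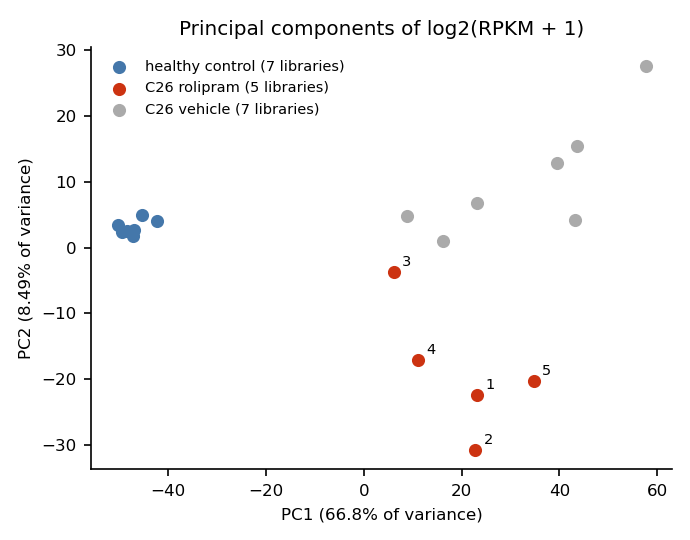
Principal components of log2(RPKM + 1) over the tested genes, 1 point per library, with the 5 C26 rolipram libraries numbered. On PC1, which held 66.8% of the variance, the controls lay between -50.3 and -42.3 and C26 rolipram between 6.1 (library 3) and 34.8 (library 5), within the range of C26 vehicle (8.9 to 57.6) except for library 3, and PC2 held 8.49%.

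Rolipram-treated muscle remained far from healthy muscle. By limma with Benjamini-Hochberg adjustment, 4286 genes (38.5% of those tested) were higher in C26 rolipram than in control and 1824 (16.4%) were lower at an adjusted p below 0.05. Differences of 2-fold or more numbered 711 upward and 404 downward. In 3948 genes (35.4%) the 5 rolipram libraries did not overlap the 7 controls. After median-of-ratios scaling the calls divided into 2895 higher and 2964 lower, so that 49.4% of calls were higher against 70.1% as deposited. No rolipram library lay among the controls on the first principal component, and library 3 lay nearest to them (plot of principal components).

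Because a p-value that misses the threshold does not show that a gene is back at the healthy level, a gene was said to lie inside the healthy margin when the 95% interval of its difference from control lay wholly within 0.5 on the log2 scale, or 1.41-fold, in either direction. This held for 4429 genes (39.8%), of which 602 also differed from control by a small called amount. A further 1204 genes were neither called nor inside the margin, so their position was not settled; intervals reached 0.249 to either side of the estimate in the median gene. For reference, C26 vehicle differed from the same controls in 4822 genes upward (43.3%) and 2646 downward (23.8%), and C26 rolipram differed from C26 vehicle in 1090 upward (9.78%) and 816 downward (7.32%). These comparisons share libraries, so the counts that join them are descriptions. By that description 587 genes (5.27%) were called in C26 vehicle, called back toward control in C26 rolipram and inside the margin there: 331 of them were low with vehicle and 256 high. Another 620 genes were called in all 3 comparisons with C26 rolipram between vehicle and control, 158 were called in all 3 with C26 rolipram farther from control than vehicle, and 27 were called on opposite sides of control with rolipram and with vehicle. The count of 587 fell to 333 without rolipram library 1 and to 326 without library 2, and the count of 27 ran from 14 without library 1 to 70 without library 3.

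**Figure D2:**
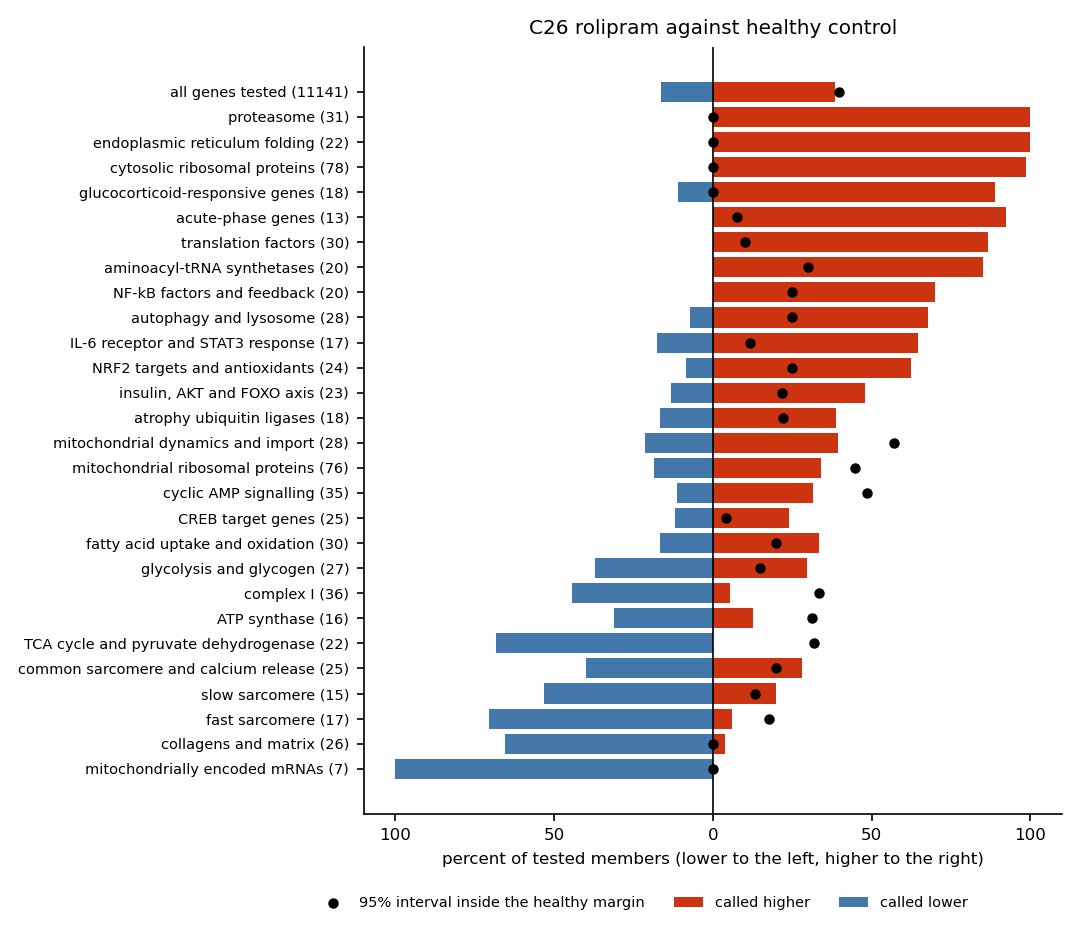
Selected gene lists and all 11141 tested genes, in C26 rolipram against control. Bars show the percent of tested members called higher (to the right) or lower (to the left). Black points, read to the right of 0, show the percent whose 95% interval lies inside the healthy margin. The number of tested members is in brackets, and not every list of the text is drawn. The proteasome and endoplasmic reticulum folding lists were higher throughout, the 7 mitochondrially encoded mRNAs lower throughout, and complex I had members both lower and inside the margin.

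The genes that reached the healthy margin are shown first, beginning with 2 promoters of mitochondrial genes, chosen as examples because each holds an element searched for. Both sequences are from RefSeq (GRCm38.p6), cover 250 bases before to 50 bases after the annotated start, and are written 5′ to 3′ on the strand of the gene. Capitals mark the full cyclic AMP response element TGACGTCA in Cycs (cytochrome c, chr6:50566520-50566819, minus strand), which returned to the margin, and the reverse complement of TCAAGGTCA, the element bound by oestrogen-related receptors such as ESRRA, in Sdhd (a membrane anchor of complex II, chr9:50603800-50604099, minus strand), which moved toward control without entering the margin.
Cycs: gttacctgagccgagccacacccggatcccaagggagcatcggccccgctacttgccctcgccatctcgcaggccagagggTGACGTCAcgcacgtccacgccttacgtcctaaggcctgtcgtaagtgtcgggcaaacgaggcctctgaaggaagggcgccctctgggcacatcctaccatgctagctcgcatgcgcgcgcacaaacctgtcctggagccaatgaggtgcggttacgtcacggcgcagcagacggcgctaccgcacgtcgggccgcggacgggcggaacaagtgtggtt
Sdhd: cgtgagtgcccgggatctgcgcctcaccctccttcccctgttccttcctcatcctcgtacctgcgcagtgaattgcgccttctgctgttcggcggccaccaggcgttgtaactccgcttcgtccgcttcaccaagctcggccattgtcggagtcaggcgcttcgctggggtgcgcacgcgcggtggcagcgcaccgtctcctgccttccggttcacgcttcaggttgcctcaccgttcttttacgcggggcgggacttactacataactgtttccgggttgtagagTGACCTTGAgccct
The element TGACGTCA, searched on both strands, was in 3.69% of the 8568 tested genes with a promoter sequence, in 3.36% of those higher in C26 rolipram, 3.46% of those lower and 4.15% of those inside the margin. Among the genes moved to the margin it was in 2.73% of those low with vehicle and 5.74% of those high with vehicle. The element TCAAGGTCA was in 0.292% of tested promoters, in 0.527% of those of genes lower than control, in 0.238% of those of genes higher and in 0 of the 256 of genes moved to the margin from a low level with vehicle. Of the 65 promoters of respiratory chain and ATP synthase subunits, 4 (6.15%) held TGACGTCA and 2 (3.08%) TCAAGGTCA. A match is a description of the letters and not evidence of binding.

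Mylk2, the kinase that phosphorylates the light chain of fast myosin, gave the largest return from a raised level (chr2:152911352-152923068). Its RPKM was 327, 355, 445, 369 and 355 in rolipram libraries 1 to 5, and the lowest, median and highest of the 7 controls were 285, 334 and 429; C26 vehicle ran from 634 to 1024. Rolipram and control overlapped, with library 3 just above the highest control, and every vehicle library lay above both. The difference from control was 0.09 ± 0.13 (SE; 95% interval -0.19 to 0.37), and that from vehicle -1.15 (adjusted p = 4.77e-05). Lpl, the lipase that releases fatty acids from circulating triglyceride, stood at 136, 91.6, 149, 166 and 251 RPKM with rolipram against 133, 140.4 and 181 in controls. Its difference from control was 0.01 ± 0.19 (interval -0.40 to 0.41) and from vehicle -1.10 (adjusted p = 0.00129), with library 5 above every control and library 2 below every one. Dhrs3, a retinal reductase, had the narrowest interval of the returning genes named here, -0.20 to 0.23, with rolipram values of 6.12 to 7.95 RPKM and controls of 5.19 to 8.54. Psme4, a proteasome activator, and the chromatin protein Hmgn2 had also been raised with vehicle and differed from control by -0.10 and -0.21, although Hmgn2 was called lower than control after either rescaling and without rolipram library 3, and Psme4 after quantile normalisation. The histone gene Hist2h4, a member of a family of near-identical copies, differed by -0.03, from values of only 0.366 to 1.3 RPKM.

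Among genes lowered with vehicle, Cycs, which carries electrons to complex IV (chr6:50562563-50566538), stood at 58.9, 60.7, 25.8, 46.8 and 52.5 RPKM with rolipram, and the controls ran from 39.9 to 71.5 with a median of 51.4. Libraries 1, 2, 4 and 5 lay within the control range, and library 3 lay within the vehicle range of 16.8 to 27.5. The difference from control was -0.13 ± 0.18 (interval -0.50 to 0.24) and from vehicle 0.99 (adjusted p = 0.00139); after quantile normalisation Cycs was called lower than control. Pstk, a kinase of selenocysteine synthesis, and Synpo2l, an actin-bundling protein of the Z-disc, differed from control by 0.15 and 0.12 and from vehicle by 1.10 each. Endog, a mitochondrial nuclease, Htra1, a secreted protease, and Mrpl12, a mitochondrial ribosomal protein, differed from control by -0.14, 0.11 and -0.12. Endog became a called fall after quantile normalisation, and Mrpl12 after that and after median-of-ratios scaling.

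**Figure D3:**
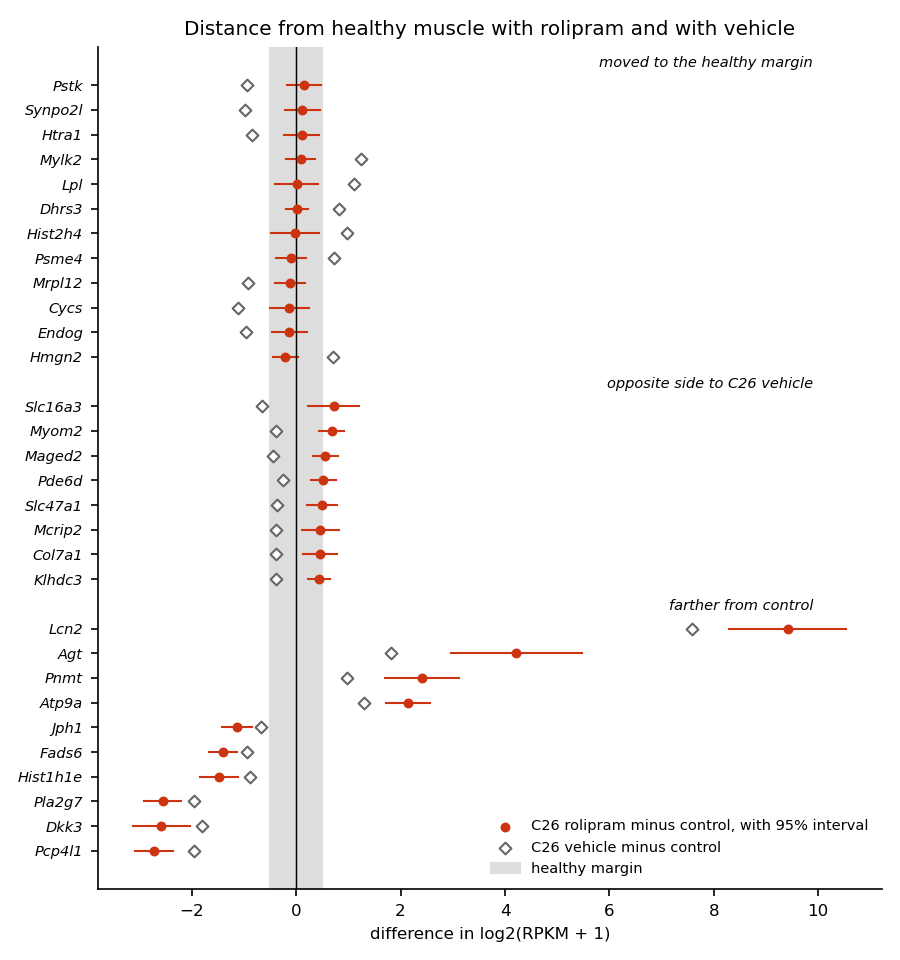
Difference from control in log2(RPKM + 1) for genes named by rule among those moved to the healthy margin, those on the opposite side of control to C26 vehicle and those farther from control than C26 vehicle; red points and lines are C26 rolipram with its 95% interval, open diamonds C26 vehicle, and the grey band the healthy margin of 0.5. The 12 returning genes have intervals inside the band, Slc16a3 and Myom2 lie above it where vehicle lies below 0, and Lcn2 reached 9.42 against 7.59 with vehicle.

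Of the nuclear-encoded genes of the respiratory chain most were higher with rolipram than with vehicle. A smaller share of them than of all tested genes lay inside the healthy margin. The mitochondrially encoded ones stayed low. Of the 80 nuclear-encoded subunits of complexes I to V tested, 30 were lower than control, 6 were higher and 28 lay inside the margin. Among all tested genes 16.4% were lower, 38.5% higher and 39.8% inside it. The median of the 80 was -0.43 relative to all genes. With vehicle 73 of the same 80 had been lower, at a relative median of -0.86, and 48 were higher with rolipram than with vehicle and 0 lower. Of these subunits 18 moved to the margin, where 5.27% of all tested genes did. The size of the remaining deficit depended on the scaling. After median-of-ratios scaling 64 of the 80 were lower than control, 13 lay inside the margin and 9 moved to it. After quantile normalisation these counts were 68, 12 and 7. The deficit also differed between libraries. The mean difference of the 80 from the control mean was -0.17, 0.01, -0.53, -0.35 and -0.25 in rolipram libraries 1 to 5. That mean ran from -0.16 to 0.10 in controls and from -1.09 to -0.44 with vehicle. Without library 2 the count of lower members was 41, and without library 3 it was 22 and 40 lay inside the margin.

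By complex, complex I, which takes electrons from NADH, had 16 of 36 members lower, 2 higher and 12 inside the margin. Ndufs1, an iron-sulphur subunit of its electron input module, stayed at 113, 93.1, 93.4, 105 and 93 RPKM, below all controls (187 to 208), and differed by -0.98 ± 0.12 (adjusted p = 1.88e-06), with no called difference from vehicle (0.29, adjusted p = 0.105). Ndufa9, of the membrane junction, differed by -0.68, and Ndufb4, an accessory subunit, lay at -0.01 (interval -0.24 to 0.22). Ndufa7, another accessory subunit, rose by 0.64 (adjusted p = 7.68e-05). In complex II 3 of 4 members were lower as deposited, 4 after either rescaling, and 1 with a replicate block or without control 2, 3, 6 or 7 or rolipram library 3, 4 or 5. They included Sdha, the catalytic flavoprotein, lower by 0.35, and Sdhd, whose promoter is shown above, lower by 0.34 (adjusted p = 0.037), a call lost without rolipram library 3, 4 or 5 or control 2, 3, 6 or 7. Sdhd stood at 241, 219, 139, 191 and 195 RPKM against a vehicle range of 78.5 to 134 and controls of 221 to 277, so that rolipram lay above every vehicle library and overlapped the controls. In complex III, Uqcrc2, a core protein, differed from control by -0.62, and Uqcr10, a small accessory subunit, by 0.04 (interval -0.23 to 0.31). In complex IV, where 2 of 15 members were lower, the muscle isoform Cox7a1 remained at 134 to 192 RPKM against 362 to 540.1 in controls (-1.56, adjusted p = 7.16e-06), while Cox8a, the isoform found in most tissues, rose by 0.59. After median-of-ratios scaling 11 of the 15 were lower. In ATP synthase, Atp5h and Atp5k, subunits of its stalk and membrane sector, fell by 0.61 and 0.61, and Atp5l, another membrane subunit, lay at 0.08 (interval -0.11 to 0.28).

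The 7 mRNAs tested that come from mitochondrial DNA were all lower than control, with a relative median of -1.01, and 0 of the 7 was called between rolipram and vehicle by limma (0 at an unadjusted p below 0.05 as well). mt-Cytb, the catalytic core of complex III, stood at 9848, 9901, 11168, 11108 and 9857 RPKM with rolipram, at 15303, 17217 and 20943 in the controls and at 8942 to 11743 with vehicle. The rolipram values lay below all controls and within the vehicle range; the difference was -0.76 ± 0.10 from control (adjusted p = 4.54e-06) and 0.02 from vehicle (adjusted p = 0.9). The complex I genes mt-Nd2 and mt-Nd4 differed from control by -1.10 and -0.74. Quantile normalisation, which sets the highest values of every library alike, left 3 of the 7 lower and turned mt-Nd4 to 0.01 (adjusted p = 0.909). Transcripts counted on the mitochondrial genome held 9.66% ± 1.24 of all RPKM with rolipram and 16.3% ± 1.78 in control.

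**Figure D4:**
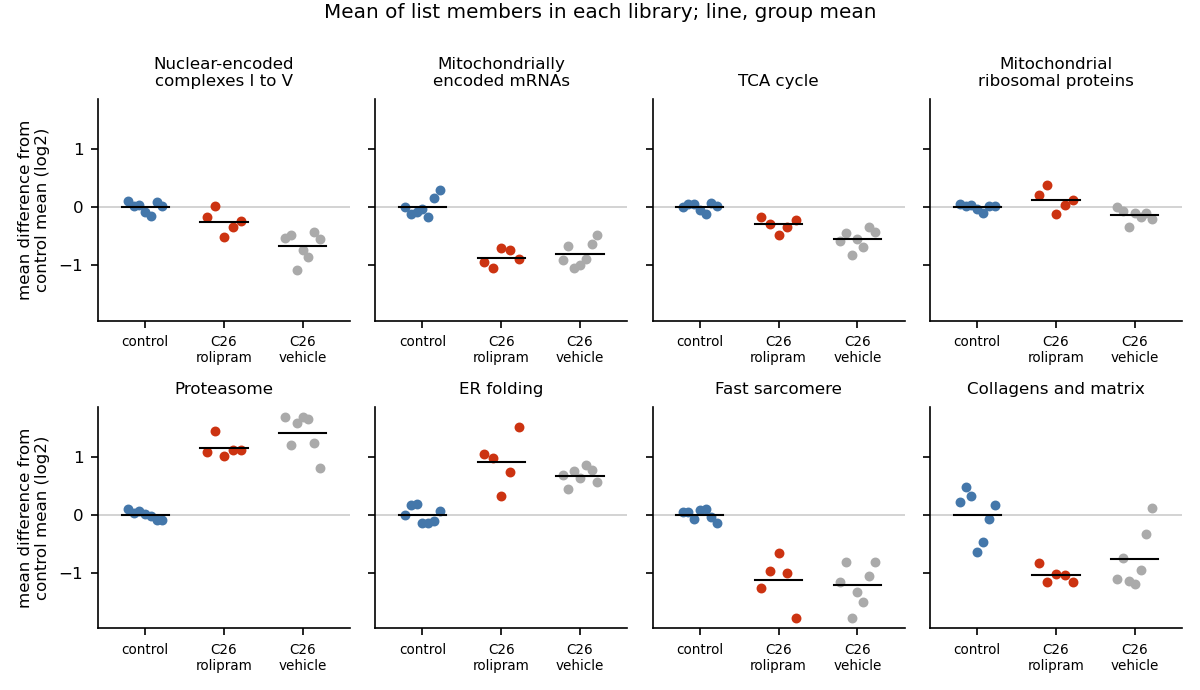
Mean over the tested members of a list of log2(RPKM + 1) minus the control mean, 1 point per library, with lines at group means, on the scale as deposited. Nuclear-encoded subunits of complexes I to V ran from -0.53 to 0.01 with rolipram and from -1.09 to -0.44 with vehicle, whereas mitochondrially encoded mRNAs ran from -1.06 to -0.71 and from -1.06 to -0.49.

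Beside the chain, the tricarboxylic acid cycle and pyruvate dehydrogenase stayed low in part, with 15 of 22 members lower, 0 higher and 7 inside the margin (relative median -0.51). With vehicle 17 had been lower and 1 higher (relative median -0.66). Against vehicle 8 of the 22 were higher with rolipram and 1 lower, where 9.78% and 7.32% of all tested genes were. Cs, citrate synthase, which starts the cycle, was at 228, 183, 221, 216 and 199 RPKM with rolipram, below every control (311 to 376), and differed by -0.71 ± 0.13 (adjusted p = 9.02e-05). It was not called against vehicle (0.25, adjusted p = 0.176). Pdhx, which binds the E3 component in the pyruvate dehydrogenase complex, fell by 0.49, and Ogdh, of the 2-oxoglutarate dehydrogenase complex, lay at 0.05 (interval -0.15 to 0.24) as deposited and -0.25 after quantile normalisation. Mitochondrial ribosomal proteins were higher in 26 of 76 genes, lower in 14 and inside the margin in 34, near the 38.5%, 16.4% and 39.8% of all tested genes. The counts turned to 17 higher and 26 lower after median-of-ratios scaling. Against vehicle 27 of the 76 were higher with rolipram and 2 lower. Mrps30 and Mrps34 of the small subunit rose by 0.68 and 0.85, while Mrpl19 fell by 0.71. Of 28 genes of mitochondrial dynamics and import, 11 were higher, 6 lower and 16 inside the margin, near the same shares of all tested genes. The counts were 6 higher and 10 lower after median-of-ratios scaling. The higher members numbered 7 without rolipram library 1 or 2 and 14 without library 3. Phb2, a scaffold of the inner membrane, and Tomm20, an import receptor, rose by 1.02 and 0.63, both farther from control than with vehicle (0.53 and 0.28), and Vdac1, the outer-membrane channel for metabolites, fell by 0.64.

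The regulators of these genes were divided. Esrra, a nuclear receptor for genes of oxidative metabolism (chr19:6910977-6921813), stood at 59.4, 55.3, 25.4, 28.8 and 38.5 RPKM with rolipram, and the controls ran from 44.7 to 61. Libraries 1 and 2 lay among the controls, and libraries 3 to 5 lay below all controls and above all vehicle values (12 to 24.7). The difference from vehicle was 0.91 (adjusted p = 0.00373), and that from control was -0.43 ± 0.19 (interval -0.82 to -0.03, adjusted p = 0.0615), neither called nor inside the margin. Esrra was called lower than control without rolipram library 1 or 2 or C26 vehicle library 3, and after either rescaling. Its relative Esrrg fell by 1.07 (adjusted p = 6.39e-06), and Sirt3, the main deacetylase of mitochondria, by 0.97. Ppargc1a, the coactivator PGC-1α and a classical cyclic AMP target, was at 4.71 to 10.8 RPKM against 5.64 to 8.37 (0.23, interval -0.22 to 0.67), which was not called and leaves a difference of up to 0.67 possible. Gabpa, the DNA-binding subunit of nuclear respiratory factor 2, lay inside the margin at -0.02.

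Genes of protein breakdown stayed raised. Trim63, the muscle ubiquitin ligase MuRF1 (chr4:134315120-134329629), stood at 1106, 1199, 1635, 847 and 1069 RPKM in the rolipram libraries, against 97.9, 111 and 164 in the controls and 1346 to 3958 with vehicle. Every rolipram library lay above every control, and library 3 alone lay within the vehicle range. The difference from control was 3.31 ± 0.20 (adjusted p = 1.16e-10), and that from vehicle was -1.11 (adjusted p = 0.0016). Fbxo32, the ligase atrogin-1, stood at 506, 343, 512, 290.3 and 366 RPKM against 24.6, 35.5 and 57.1, above every control. Libraries 1 and 3 lay within the vehicle range of 490.4 to 1132. The difference was 3.37 ± 0.21 from control and -0.87 from vehicle (limma adjusted p = 0.0078). Of 18 atrophy ligases tested, 7 were higher, 3 lower and 4 inside the margin, where 38.5% and 16.4% of all tested genes were higher and lower. The counts were 6 and 6 after median-of-ratios scaling and 5 and 5 after quantile normalisation. Trim55, which encodes the related MuRF2, fell by 0.94, and Mul1, a mitochondrial ligase, lay at 0.01 (interval -0.15 to 0.18) as deposited and at -0.22 after quantile normalisation.

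All 31 proteasome subunits tested were higher than control and 0 lay inside the margin, with a relative median of 0.94 (1.19 with vehicle). Psma7, of the catalytic core, was at 315, 443, 269, 310.2 and 382 RPKM against 74.4 to 81.4, a difference of 2.10 ± 0.18 (adjusted p = 1.59e-08). Psmd2, of the regulatory cap, rose by 1.73, and Psmb6, a catalytic subunit, by 0.59. The list stayed at 31 higher after median-of-ratios scaling and with any library left out, and at 30 after quantile normalisation. Of 28 autophagy and lysosome genes 19 were higher, 2 lower and 7 inside the margin (relative median 0.50). The shares of all tested genes were 38.5%, 16.4% and 39.8%. Map1lc3b, which coats the autophagosome, stood at 81.1 to 99.6 RPKM against 22.5 to 26.5, 1.89 above control and -0.40 from vehicle (adjusted p = 0.0065). Ctsd, a lysosomal protease, rose by 1.67, Fundc1, which marks mitochondria for autophagy, fell by 0.47, and Atg12, a conjugation factor, lay inside the margin at 0.04.

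Upstream of these genes, Foxo1, a FOXO factor that induces both ligases, was at 4.5, 3.06, 5.03, 4 and 6.59 RPKM with rolipram and 1.94, 2.63 and 6.9 in controls, with overlap. It was lower than with vehicle (-0.87, adjusted p = 0.0263), and its difference from control of 0.51 (interval -0.03 to 1.05, adjusted p = 0.103) was neither called nor inside the margin. Foxo4 lay inside the margin at -0.04, although quantile normalisation called it lower, and Foxo6 fell by 1.61. Of the 23 genes of the insulin, AKT and FOXO axis, 11 were higher and 3 lower, where 38.5% and 16.4% of all tested genes were. Eif4ebp1, a brake on translation initiation, rose by 3.94 from controls of 13.8 to 22.7 RPKM to 208 to 348, and Mtor, the kinase that inactivates it, by 1.04. Igfbp5, a binding protein of insulin-like growth factors, fell by 3.43. Mstn, the growth inhibitor myostatin, was not called (-0.20, interval -0.74 to 0.34). Of 23 myostatin, activin and SMAD genes 7 were higher, or 3 after median-of-ratios scaling, and 7 lower, where 38.5% and 16.4% of all tested genes were, with the ligand Gdf11 lower by 1.43 and the receptor Tgfbr1 higher by 0.72.

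**Figure D5:**
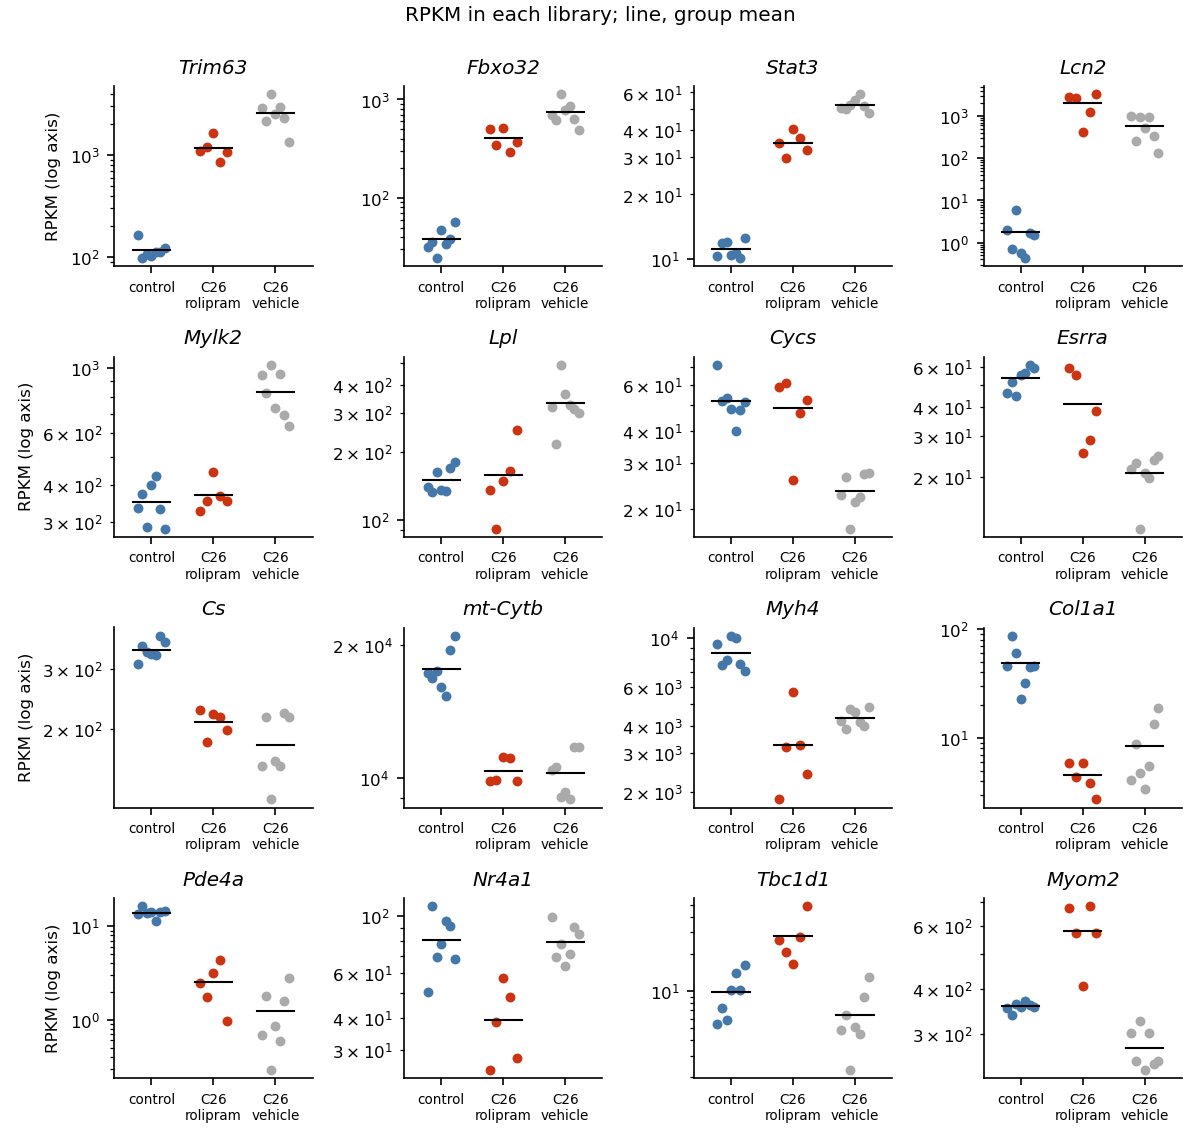
RPKM on log axes in each library for 16 genes named in the text; points are libraries and lines group means. With rolipram the group means of Trim63, Fbxo32 and Stat3 stand between control and vehicle, with some Trim63 and Fbxo32 libraries inside the vehicle range. Mylk2, Lpl and Cycs overlap the controls, and mt-Cytb and Col1a1 stay at or below the vehicle level. Lcn2, Myom2 and Tbc1d1 lie above vehicle on average.

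Hormone and cytokine response genes remained high. Of 18 glucocorticoid-responsive genes 16 were higher and 2 lower (1 without control 7 or rolipram library 1, 3 or 4); the relative median was 1.23 against 1.92 with vehicle. Mt2 and Mt1, metallothioneins that bind zinc and respond to glucocorticoids and zinc, rose by 7.70 ± 0.33 and 6.96 ± 0.25: Mt1 stood at 1506, 1961, 1023, 1229 and 2205 RPKM where the controls ran from 7 to 20.6. Fkbp5, a chaperone of the glucocorticoid receptor and a standard target of it, rose by 3.83 (55.8 to 132 RPKM against 2.38 to 13.4). The 3 were not called against vehicle, at -0.37, -0.42 and -0.09 (adjusted p = 0.459, 0.257 and 0.877). Nr3c1, the receptor itself, was lower than control by 0.63 (adjusted p = 0.00161). Among 20 metallothioneins and zinc transporters, 9 were higher, 2 lower and 10 inside the margin, where 38.5%, 16.4% and 39.8% of all tested genes were. The relative median of this list was 0.01, so as a whole it was not raised. Its lower members numbered 1 with a replicate block or without control 2, 3, 4, 6 or 7 or rolipram library 3, 4 or 5.

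In the IL-6 and STAT3 list 11 of 17 genes were higher and 3 lower (5 after quantile normalisation), where 38.5% and 16.4% of all tested genes were. Stat3 stood at 34.7, 29.5, 40.5, 36.9 and 32.2 RPKM with rolipram, wholly between the controls (10.1 to 12.5) and vehicle (48.3 to 58.9). It was 1.56 ± 0.08 above control (adjusted p = 1.88e-11) and -0.58 from vehicle (adjusted p = 0.000321). Socs3, the feedback inhibitor that STAT3 induces, was at 16.3, 64.6, 24.4, 21.2 and 49.9 RPKM against 1.22, 2.25 and 9.79 in controls, above every control and spread over a wide range, with a difference of 2.98 ± 0.38 from control and no call against vehicle (-0.39, adjusted p = 0.505). Osmr, the oncostatin M receptor, rose by 1.32, Lifr, the receptor of leukaemia inhibitory factor, fell by 0.71, and the kinase gene Jak1 lay inside the margin at -0.06, although quantile normalisation called it lower. Of 20 NF-κB factors and feedback genes 14 were higher and 0 lower by limma; Tnfaip3, a feedback inhibitor, had the lowest value, -0.28, and 2 members were called lower after median-of-ratios scaling. Nfkb2 rose by 1.75, farther than with vehicle (1.36), and Tnfrsf1a, a receptor of tumour necrosis factor, by 1.21.

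Of 13 acute-phase genes tested 12 were higher and 0 lower, where 38.5% and 16.4% of all tested genes were. Lcn2, lipocalin 2, which sequesters bacterial iron carriers (chr2:32384633-32388252), gave the largest rise of all tested genes. It stood at 2857, 2645, 429, 1250.4 and 3309 RPKM in rolipram libraries 1 to 5, while the controls ran from 0.436 to 5.86 and vehicle from 132 to 984. Libraries 1, 2, 4 and 5 lay above every vehicle library and library 3 within that range; the difference was 9.42 ± 0.54 from control (adjusted p = 3.89e-11) and 1.82 from vehicle (adjusted p = 0.0252). Serpina3n, a protease inhibitor with close paralogs, rose by 5.16 and was not called against vehicle (-0.81, adjusted p = 0.12). Cp, the copper carrier ceruloplasmin, lay inside the margin at 0.18, though not in the fit with a replicate block, where it was called. The neutrophil gene S100a8 ranked the 5 rolipram libraries in the same order as Lcn2, which was also their order on the first principal component. S100a8 reached 79.5 RPKM in library 5, against 2.72 to 14.6 in the other rolipram libraries and 1.9 at most in controls. S100a9, the other neutrophil marker tested, gave the same order at 4.32, 3.95, 1.51, 2.44 and 5.27 RPKM in libraries 1 to 5. Its values overlapped the controls, which reached 3.37. Of the 10 neutrophil markers listed, 3 were in the table and 2 of these tested; the summed RPKM of the 3 was 4.43 to 85.2 with rolipram, 0.362 to 5.4 in control and 5.25 to 19 with vehicle, and the part of neutrophils in the acute-phase values was not tested.

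Within the pathway that rolipram acts on, no PDE4 gene lay inside the healthy margin. With rolipram 1 of the 4 was higher than control and 1 lower, and with vehicle 3 were higher and 1 lower. Rolipram was not called against vehicle for any of the 4. Pde4a (chr9:21165714-21213248) was at 2.45, 1.76, 3.13, 4.39 and 0.972 RPKM with rolipram, below every control (11.3 to 16.3) and overlapping vehicle (0.289 to 2.78). Its difference from control was -2.15 ± 0.23 (adjusted p = 3.23e-07), and that from vehicle was 0.68 (adjusted p = 0.0525). Pde4c was higher by 0.65 (adjusted p = 5.71e-05), with all rolipram values above all controls. Pde4b and Pde4d overlapped the controls at 16, 12.6, 20.6, 25.1 and 11.6 and 22.6, 21.7, 16.2, 20.5 and 29.9 RPKM, with differences of 0.47 (interval -0.10 to 1.04) and 0.20 (interval -0.29 to 0.69) that were neither called nor inside the margin. Among other phosphodiesterases, Pde8a, a cyclic AMP-specific enzyme that rolipram does not inhibit, rose by 1.28, farther than with vehicle (0.90), Pde9a, specific for cyclic GMP, rose by 0.64, and the cyclic AMP-specific Pde7b fell by 1.75.

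In the cyclic AMP signalling list 11 of 35 genes were higher, 4 lower and 17 inside the margin, where 38.5%, 16.4% and 39.8% of all tested genes were. Creb1 lay inside it at -0.18 (interval -0.40 to 0.05), although median-of-ratios scaling called it lower, and Gnas, the stimulatory G protein, lay at -0.02, a called fall after quantile normalisation. The list turned to 5 higher and 11 lower after median-of-ratios scaling. Pkig, an inhibitor of protein kinase A, rose by 0.97 against 0.40 with vehicle, and Popdc3, a cyclic AMP-binding membrane protein, by 1.20, whereas Pkia, another inhibitor of the kinase, fell by 1.43. Of the 25 known targets of CREB tested, 13 were higher and 2 lower with vehicle, where 43.3% and 23.8% of all tested genes were. Rolipram differed from vehicle in 1 of them upward and 3 downward. With rolipram 6 were higher than control and 3 lower, where 38.5% and 16.4% of all tested genes were, and 1 lay inside the margin. The counts were 4 and 5 after median-of-ratios scaling and 3 and 4 after quantile normalisation, and the lower members numbered 1 without control 7 or rolipram library 3 or 4 and 5 without control 5. Nr4a1, a nuclear receptor that cyclic AMP and nerve activity induce (chr15:101254269-101274795), stood at 25.1, 38.6, 57.6, 48.2 and 28 RPKM with rolipram against 50.5, 77.9 and 109 in controls, and libraries 1, 2, 4 and 5 lay below every control. It was lower than control by 1.03 (adjusted p = 0.000165) and lower than vehicle by 1.04 (adjusted p = 0.00183), and vehicle was not called against control (0.01, adjusted p = 0.96). Junb, an immediate early gene that many stimuli induce, rose by 2.27, and Crem, whose short form is a feedback repressor induced through CREB, lay inside the margin at -0.02.

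Contractile genes of fast fibres stayed low. For the list counts here, 16.4% of all tested genes were lower, 38.5% higher and 39.8% inside the margin. Of 17 fast sarcomere genes 12 were lower, 1 higher and 3 inside the margin, with a relative median of -1.33 against -1.12 with vehicle. After quantile normalisation 9 were lower and 3 higher. Myh4, the heavy chain of the fastest fibres, was at 1846, 3179, 5705, 3259 and 2397 RPKM with rolipram, below every control (7059.9 to 10246). It differed by -1.47 ± 0.19 from control (adjusted p = 2.31e-06) and by -0.51 from vehicle (adjusted p = 0.069), with libraries 1, 2, 4 and 5 below every vehicle library. In bulk muscle, fewer fibres of a type and less of the RNA per fibre cannot be told apart. Myl1, a fast light chain, fell by 1.71, and Tnni2, the fast inhibitory troponin, lay at -0.04 (interval -0.28 to 0.19) as deposited but at 0.56 after quantile normalisation. In the slow sarcomere list 8 of 15 were lower and 3 higher. The lower members numbered 6 without rolipram library 2 and 9 without library 1. The mean difference of the list from the control mean was 0.05, -1.01, -0.56, -0.35 and -0.21 in rolipram libraries 1 to 5. In controls it ran from -0.28 to 0.35. The slow light chains Myl2 and Myl3 fell by 1.45 and 1.83, and were lowest in library 2, at 34.3 and 19.4 RPKM. Ankrd2, a stretch-responsive titin-binding protein, rose by 2.39.

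Structural and excitation genes moved both ways. For the counts in this paragraph, 16.4% of all tested genes were lower and 38.5% higher. Of 25 genes of the common sarcomere and calcium release, 10 were lower and 7 higher, the latter a smaller share than among all genes. Des, the intermediate filament desmin, stood at 3151, 3348, 2369, 3101 and 3429.5 RPKM against 819 to 1089, 1.67 above control and 0.45 above vehicle (adjusted p = 0.00712). Cacnb1, a subunit of the voltage sensor, fell by 1.84, Jph1, which ties the calcium store to the surface membrane, by 1.14, farther than with vehicle (-0.67), and the giant protein gene Neb lay inside the margin at -0.05. Casq1, the calcium buffer of the fast sarcoplasmic reticulum, stood at 116, 133, 283, 209 and 61.7 RPKM against 1202 to 2007 in controls, a difference of -3.50. Among 16 ion channel and pump genes 8 were lower, or 5 without rolipram library 2, and 4 higher, with the sodium pump subunit Atp1b2 lower by 1.76 and the potassium channel Kcnc4 higher by 0.95. Of 16 genes of the neuromuscular junction, 7 were lower and 5 higher: Chrne, the adult acetylcholine receptor subunit, fell by 2.02 and Chrnb1 rose by 1.64, farther than with vehicle (1.22). Of 14 myogenic genes 7 were higher and 4 lower, among them Mustn1, a nuclear protein of regenerating muscle (4.43), and Cdh15, a cadherin of muscle precursors (1.23), while Mef2d lay at -0.08, a called fall after either rescaling.

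Matrix genes remained low. Of 26 collagens and matrix genes 17 were lower, 1 higher and 0 inside the margin, with a relative median of -1.19 against -0.88 with vehicle. The shares of all tested genes were 16.4%, 38.5% and 39.8%. Col1a1 and Col1a2, the chains of type I collagen, stood at 5.87, 4.35, 5.9, 3.83 and 2.71 and 10.6, 7.7, 12, 9.26 and 6.27 RPKM, where the controls ran from 22.6 to 87.3 and from 41.1 to 126, so that neither overlapped. They fell by 3.09 and 2.92 (adjusted p = 3.47e-07 and 3.36e-07) and were not called against vehicle (-0.59 and -0.60). Lox, which cross-links collagen, rose by 0.71. The summed RPKM of 10 fibroblast markers, all 10 in the table, overlapped, at 287 to 432 with rolipram and 268 to 552 in control, with 2 members higher and 3 lower. The 8 tendon markers, 7 of them tested, summed to 24.0 to 54.6 with rolipram and 114 to 215 in control, with no overlap and 6 lower, and Kera and Tnmd, a matrix proteoglycan and a tendon membrane protein, were at 0.824 RPKM or less in every rolipram library. The part of tendon tissue in the collagen values was not tested. The tendon factor Scx was raised against vehicle (1.06, adjusted p = 0.00139) and not called against control (-0.27).

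All 6 erythroid markers tested were higher, with a summed RPKM of 203 to 552 against 90.8 to 247, and Alas2, which starts haem synthesis in erythroid cells, rose by 1.48. Of 10 macrophage markers 5 were higher and 0 lower by limma, where Csf1r had the lowest value (-0.12), and the sum of the 12 in the table, 57.8 to 165, overlapped the 30.3 to 142 of controls. Of 13 endothelial markers 4 were higher and 1 lower (2 and 2 after either rescaling, and 7 higher with a replicate block), where 38.5% of all tested genes were higher. The adhesion genes Esam and Pecam1 rose by 0.66 and 0.47, and Kdr, a receptor of vascular growth factor, fell by 1.23. Of the 11 lymphocyte markers listed only Ighm, the heavy chain of immunoglobulin M, was in the table; it stood at 0.436, 0.42, 0.561, 0.223 and 1.15 RPKM with rolipram and 24.9, 34.7 and 63.6 in control, a difference of -4.57. Of 7 adipocyte markers 2 were lower and 0 higher by limma (0 lower without rolipram library 1 or 5, and 1 without control 6 or 7 or rolipram library 2, or with a replicate block), and Fabp4 was the highest at 0.21. Of 6 Schwann cell markers 0 were called by limma as deposited or after either rescaling, and without rolipram library 3 the count was 3 lower.

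Genes of protein synthesis and folding stood above the healthy level. Among all tested genes 38.5% were higher and 39.8% lay inside the margin. Of 78 cytosolic ribosomal protein genes 77 were higher than control, with a relative median of 0.71 against 0.49 with vehicle. After median-of-ratios scaling 76 were higher and after quantile normalisation 74. Rps27 stood at 741, 1089.6, 536, 682 and 935 RPKM against 225 to 326 and rose by 1.51, and Rpl10a rose by 1.46; processed pseudogenes can take some of their reads. All 22 genes of folding in the endoplasmic reticulum were higher (18 after median-of-ratios scaling, 17 after quantile normalisation), with a relative median of 0.82 against 0.44 with vehicle. Xbp1, a factor of the unfolded protein response, was at 109, 105, 60.5, 83 and 125 RPKM against 22.1 to 31.3 (1.80 ± 0.15), and P4hb, protein disulfide isomerase, rose by 1.39. Translation factors were higher in 26 of 30 genes, with the elongation factor Eef2 at 1.37 and the cap-binding protein gene Eif4e inside the margin at -0.03, as deposited and called lower after quantile normalisation. Ribosome biogenesis genes were higher in 24 of 27, including Myc (1.15) and Polr1a, the large subunit of RNA polymerase I (0.54). Aminoacyl-tRNA synthetases were higher in 17 of 20, led by Vars (1.59), or in 10 after quantile normalisation, and 6 lay inside the margin. Against vehicle, 4 of the 78 ribosomal protein genes, 2 of the 22 folding genes, 1 of the 30 translation factors, 0 of the 27 ribosome biogenesis genes and 1 of the 20 synthetases were higher with rolipram by limma, where 9.78% of all tested genes were.

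Of 15 genes of the ATF4 stress response 8 were higher and 5 lower. Among all tested genes 38.5% were higher and 16.4% lower, and 7.32% were lower with rolipram than with vehicle. Slc3a2, the heavy chain of amino acid exchangers, rose by 1.60, and Ddit3, the stress factor CHOP, was lower by 0.79. Heat shock proteins were higher in 12 of 18, or in 6 after median-of-ratios scaling and 5 after quantile normalisation, among them the small muscle chaperones Hspb7 (2.62) and Hspb6 (1.73, against 1.00 with vehicle). NRF2 targets and antioxidants were higher in 15 of 24 and lower in 2, and 9 of the 24 were lower with rolipram than with vehicle. Gpx3, the secreted glutathione peroxidase, stood at 439.6, 372, 506, 470.1 and 554 RPKM, between the controls (85.5 to 184) and vehicle (619 to 999) without overlapping either. Sod2, the mitochondrial superoxide dismutase, was lower than control by 0.60 and higher than vehicle by 0.45 (adjusted p = 0.0145).

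Some genes of carbohydrate use lay above the healthy level with rolipram and at or below it with vehicle. Slc16a3, the lactate exporter of glycolytic fibres, was at 95.1, 93.2, 66.4, 83.2 and 138 RPKM with rolipram, 46.5, 55.6 and 66.5 in controls and 13.4 to 54.1 with vehicle, so that rolipram lay above every vehicle library and only library 3 within the control range. It was 0.72 ± 0.24 above control (adjusted p = 0.0145), where vehicle was -0.65 (adjusted p = 0.0119), but the call against control was lost without library 5 and after either rescaling. Bsg, the chaperone of lactate transporters, rose by 0.68 with library 3 inside the control range, and was not called with vehicle (-0.12, adjusted p = 0.436). Tbc1d1, which holds glucose transporter vesicles inside the fibre until it is phosphorylated, was at 25.8, 20.8, 16.6, 27.7 and 48.7 RPKM against 5.37 to 16.2 in controls and 2.29 to 13 with vehicle, above both without overlap. It rose by 1.41 ± 0.31 over control (adjusted p = 0.000776) and by 2.00 over vehicle (adjusted p = 0.000602). Mpc2, a subunit of the mitochondrial pyruvate carrier, stayed low at -0.50, above its vehicle difference of -0.97, while Mpc1 lay inside the margin as deposited (0.04) and at -0.28 after quantile normalisation. Of 27 glycolysis and glycogen genes 8 were higher and 10 lower, where 38.5% and 16.4% of all tested genes were. The counts were 7 and 12 after median-of-ratios scaling and 8 and 11 after quantile normalisation. With vehicle 6 had been higher and 16 lower. Against vehicle 9 of the 27 were higher with rolipram and 0 lower, where 9.78% and 7.32% of all tested genes were. Pgk1, phosphoglycerate kinase, lay inside the margin at -0.08 (vehicle -0.61), and was called lower after quantile normalisation. Pkm, pyruvate kinase, fell by 0.70, the heart-type lactate dehydrogenase gene Ldhb by 1.66, and Ugp2, which makes the glucose donor of glycogen, rose by 1.70.

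Of 30 fatty acid genes 10 were higher and 5 lower, where 38.5% and 16.4% of all tested genes were. The lower members numbered 3 without rolipram library 5. The balance turned to 6 higher and 9 lower under median-of-ratios scaling and to 5 higher and 11 lower under quantile normalisation. Pnpla2, the triglyceride lipase of fat droplets, was at 451, 465, 231, 361 and 396 RPKM against 65.5 to 106 (2.16 ± 0.18), and Hadh, of beta-oxidation, fell by 0.61. Nmrk2, a kinase of muscle that feeds nicotinamide riboside into NAD, stood at 11, 23.7, 8.37, 16.7 and 10.7 RPKM with rolipram, between the controls (85 to 242) and vehicle (0.57 to 6.12). It was -3.33 ± 0.35 from control (adjusted p = 2.15e-07) and 1.92 above vehicle (adjusted p = 0.00161), without overlap on either side. In polyamine synthesis Odc1, the first enzyme, rose by 1.48, and Amd1, the next decarboxylase, stood at 11.7 to 22.2 RPKM against 83.7 to 215 and fell by 3.09, with no called difference from vehicle (0.03, adjusted p = 0.937). Car4, a membrane carbonic anhydrase, rose by 1.45 and the cytosolic Car3 fell by 1.94. Among circadian genes 7 of 18 were higher, near the 38.5% of all tested genes, and 8 lower, where 16.4% of all were. The repressor Bhlhe41 was lower by 1.62, and sampling times were not given in the labels.

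The largest rises among genes whose libraries did not overlap were Lcn2, Mt2, Mt1, Serpina3n, Mustn1 and Agt, followed by Eif4ebp1, Fkbp5, Ankrd1 and Depp1. Agt, angiotensinogen, stood at 169.5, 171, 7.76, 54.6 and 136 RPKM with rolipram, with library 3 far below the other 4 and inside the vehicle range of 4.33 to 39.1. The controls lay between 2.13 and 4.32, and the difference was 4.22 ± 0.61 from control and 2.40 from vehicle (adjusted p = 0.0117). Ankrd1, a stress-induced titin-binding repressor, rose by 3.65, and Depp1, a FOXO target that promotes autophagy, by 3.62. The largest falls were Nrep (-4.74), Ighm, Myoz3, a Z-disc protein of fast fibres (-4.23), Tmem233 (-4.10) and Ostn, the myokine musclin (-4.02), followed by Actc1, Mettl21c, Casq1, Igfbp5 and Mybph. Actc1, the cardiac actin gene, whose sequence is close to that of Acta1, changed by -3.75. Mybph, a myosin-binding protein, stood at 7.36, 4.13, 8.04, 21.5 and 2.39 RPKM with rolipram, below every control (37.5 to 117), and was 1.61 above vehicle (adjusted p = 0.0177).

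Of the 27 genes called on opposite sides of control with rolipram and with vehicle, 26 were higher with rolipram and low with vehicle. Myom2, an M-band protein that links thick filaments, was at 673, 575, 407, 680.2 and 575 RPKM with rolipram, above every control (339 to 370.0), which in turn lay above every vehicle library (237 to 326). Its difference was 0.68 ± 0.11 from control (adjusted p = 4.96e-05) and 1.07 from vehicle (adjusted p = 4e-05). Maged2, a regulator of membrane transport, and Klhdc3, a substrate receptor of a ubiquitin ligase, also lay above all controls, at 0.56 and 0.43. Pde6d, a carrier of lipid-modified proteins, and Slc47a1, an exporter of organic cations, differed by 0.52 and 0.50, and Mcrip2 and Col7a1 by 0.46 each, with calls that were lost without rolipram library 1 or 2. After quantile normalisation the call against control was lost for Klhdc3, Slc47a1, Mcrip2 and Col7a1.

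Of the 158 genes farther from control with rolipram than with vehicle, 148 were higher and 10 lower. Atp9a, a lipid flippase of endosomes, was at 31.6, 27.1, 37.8, 39.6 and 31 RPKM with rolipram against 5.47 to 9.02 in controls, with differences of 2.15 with rolipram and 1.30 with vehicle. Pnmt, which makes adrenaline from noradrenaline, was at 16.4, 15.9, 5.33, 2.25 and 10.9 RPKM against 0.45 to 1.11, a difference of 2.41 (vehicle 0.97). Among the 10 lower genes were Pcp4l1 (-2.72, vehicle -1.96), the secreted Wnt regulator Dkk3 (-2.58, vehicle -1.81), Pla2g7, which degrades platelet-activating factor (-2.56, vehicle -1.96), the linker histone gene Hist1h1e (-1.48) and Fads6 (-1.40). Genes called with rolipram against both other groups, and not with vehicle against control, numbered 287, of which 250 were higher and 37 lower; Tbc1d1, Bsg and Nr4a1, described above, were among them.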

How the data were processed

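Expression in gastrocnemius muscle was measured by stranded, polyA-selected RNA sequencing in 19 libraries, of which 5 (C26 rolipram) were compared with 7 (healthy control) and 7 (C26 vehicle) served as reference. The submitters' processing notes name STAR 2.5.3a, featureCounts 1.6.4 and the build mm10. The authors deposited 1 table of RPKM for 13067 gene symbols; the tool that computed the RPKM, the annotation and the strand setting are not given in the sources used here. No value was 0, and every one of 234 low values checked was a whole number of reads within 0.05 read, from which library sizes of 16.48 to 45.25 M reads were estimated; since these are not counts, no count model was used and intervals rest on the spread between libraries.

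Values were analysed as log2(RPKM + 1) with limma 3.58.1 in R 4.3.3, in a model of 3 group means over all 19 libraries with trended and robust variance moderation, two-sided, with Benjamini-Hochberg adjustment over 11141 genes. A change on this scale understates that of genes near or below 1 RPKM. Single values per library were compared by exact permutation. On simulated data with planted changes the share of planted log2 changes recovered was 50.7% at a size of 0.5, 92.5% at 1 and 98.5% at 2 for C26 rolipram against control among 11141 genes. The model called 10 of 10941 unchanged genes and put 80.5% of unchanged genes and 0% of changed genes inside the margin. No planted change was smaller than the margin, so the 0% was nearly fixed in advance. Far fewer genes were changed than were called in the data, only better expressed ones, and vehicle was drawn at the control mean. These rates need not hold for the data. Coordinates are GENCODE vM21 on GRCm38, the same assembly as mm10; 13006 of 13067 symbols matched. Figures were drawn with matplotlib 3.10.9 in Python 3.11.15.

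The groups compared, the 60 gene lists and the tests were chosen with earlier results of these data known, so no list was given a p-value. Lists are described by counts and medians beside those of all genes. Named genes were chosen by rule: a panel of 20, the 10 largest rises and 10 largest falls without overlap, the 12 genes moved to the margin with the largest difference from vehicle, the 8 largest on the opposite side, the 6 largest rises and 6 largest falls among genes farther from control, and in each list the 2 smallest p in the majority direction, 1 in the other and 1 member whose interval reached least far from 0; clone-named genes were left out. Acta1 and Ckm were named for the tissue check, and a few genes that the rule names are not reported here. Alternatives were other pseudocounts, low-value filters, scalings, margins, the 12 libraries alone, a replicate block and each library left out; their counts within gene lists were added after the data were seen. Replicate numbers did not pair the libraries: same-numbered rolipram and control libraries correlated between -0.0955 and 0.0303 in their deviations from group means. Columns of all 19 libraries were mapped by their labels.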

Additional observations from a re-analysis of the deposited data

Results flagged for a closer look

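In each group of 5 or 7 libraries the highest or lowest value was compared with the others by Dixon's test on log2(RPKM + 1). Of 388 groups tested, 20 held a library far from the others, and chance gives about 1 in 20. Rolipram library 3 accounted for 4 of the 10 found in C26 rolipram. In that library Des was 2369 RPKM against 3101 to 3429.5 in the other 4, Hspb7 326 against 685 to 869.8, Chrnb1 40.5 against 48.1 to 50.6, and Car4 9.36 against 13.8 to 15.7. Library 3 also lay nearest to the controls on the first principal component.

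In rolipram library 2, Atp5k stood at 522 RPKM (others at most 407), Psmb6 at 304 (others at most 229) and Tnni2 at 11893 (others at most 8802). In library 4, Map1lc3b was 81.1 where the lowest of the others was 94.0. In library 5, Mul1 was 13.2 (others at most 11.5) and Pgk1 197 (others at least 244).

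Among the controls, library 1 was low in Endog (22.9, others at least 34.6) and high in Psmb6 (189, others at most 161) and Uqcr10 (795, others at most 618). Library 5 was high in Foxo1 (6.9, others at most 2.98) and Psmd2 (95.2, others at most 88.9). Without that library, the rise of Foxo1 with rolipram was called. Control 7 was high in Tapbp (16.2, others at most 12.2) and low in Trim55 (29.6, others at least 33.1). Atp5l was 7.67 in control 6 (others at most 6.4), Cdh15 4.45 in control 3 (others at least 5.29) and Hist1h1e 2.59 in control 2 (others at least 3.19).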

How the results depend on the processing

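The count of genes lower than control, 1824 as reported, was 1056 with RPKM of at least 5, 2964 after median-of-ratios scaling and 2794 after quantile normalisation. The count inside the healthy margin, 4429 as reported, was 2947 with a pseudocount of 0.1, 2190 with RPKM of at least 5, 1357 with a margin of 0.3 and 8828 with a margin of 1, where the change follows from the width of the margin. Genes moved to the margin numbered 189 and 1119 under those 2 margins. The cause was not tested for the other changes. With 1 library left out, the counts ran from 3780 to 4481 (higher), 1666 to 1918 (lower), 4005 to 4624 (inside), 326 to 726 (moved to the margin) and 14 to 70 (opposite side), and the difference in the share of the 20 most abundant genes from -14.3 to -11.9 percentage points. The replicate numbers do not pair these libraries; with a replicate block 4193 genes were higher, 1591 lower, 4531 inside, 714 moved and 41 on the opposite side.

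Among the 262 named genes, quantile normalisation turned the sign of at least 12, which lay within 0.3 of control as deposited apart from mt-Nd4. After it they were at: Mul1 -0.22, Uqcr10 -0.25, mt-Nd4 0.01, Ogdh -0.25, Etfa -0.25, Pdk2 -0.01, Mpc1 -0.28, Tnni2 0.56, Rars -0.23, Hspa4 -0.03, Prdx3 -0.29 and Mrpl27 -0.30. Quantile normalisation left the side of the threshold as it was for 216 of the 262, median-of-ratios scaling for 238 and the replicate block for 250. Pseudocounts of 0.1 and 0.5 and plain moderation left it as it was for all 262. With 1 library left out, no called difference became a call of the opposite sign, although uncalled differences near 0 can turn sign. Depth of 16.48 M reads or more limits chiefly genes near 1 RPKM, whose differences the pseudocount shrinks.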

Other observations

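Of 21 tested interferon response and MHC class I genes 3 were higher and 3 lower in C26 rolipram than in control, where 38.5% and 16.4% of all tested genes were, and 6 lay inside the healthy margin. Tapbp, which loads peptides on MHC class I, rose by 0.62 (limma adjusted p = 1.09e-05), Gbp7, an interferon-induced GTPase, fell by 1.05 (adjusted p = 2.43e-06), and Irf9, the DNA-binding part of the interferon-activated factor, lay at 0.00 (95% interval -0.24 to 0.25). The counts of higher and lower members were 2 and 5 after median-of-ratios scaling, 1 and 4 after quantile normalisation and 8 and 1 with a replicate block. Without control 7 they were 7 and 1, and without control 3 the lower members numbered 1. Of 17 amino acid transporters 10 were higher and 2 lower, with Slc7a6, a cationic amino acid exchanger, higher by 0.96 and Slc38a3, a glutamine transporter, lower by 1.89. Of 11 snoRNA host transcripts 8 were higher and 0 lower by limma; Gas5 rose by 1.45, against 2.32 with vehicle.

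Of 10 myokine genes 4 were lower and 2 higher, where 16.4% and 38.5% of all tested genes were. Fndc5, the precursor of irisin, fell by 1.99, and Erfe, the iron hormone erythroferrone, rose by 0.76. Of 8 pericyte and smooth muscle markers 1 was lower, Rgs5 (-0.49), and 3 lay inside the margin; 4 were lower after median-of-ratios scaling. Of 20 genes of NAD metabolism 6 were higher and 4 lower, where 38.5% and 16.4% of all tested genes were. Nadk, which makes NADP, lay at 0.42 and Nmnat3, of mitochondrial NAD synthesis, at -0.04 (interval -0.30 to 0.22).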
